A study of Mus musculus with 2 samples.

Results

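Müller glia (MG), the glia that span the retina, were FACS-purified from adult mouse retinas, and the transcripts of 10 genes of the cone phototransduction cascade were read from them on 1 undamaged control array and 1 light damage array. The members are the cone pigments Opn1sw and Opn1mw, the cone transducin subunits Gnat2, Gnb3 and Gngt2, the phosphodiesterase subunits Pde6c and Pde6h, the channel subunits Cnga3 and Cngb3 and the cone arrestin Arr3. They were chosen as genes of the cascade, and every probe set that the platform annotation pairs with a member and no other gene was used. All 10 were found, with 111 probe sets in total, among 20412 genes with a value. The control array held pooled RNA of 12 undamaged retinas, and the light damage (LD) array that of 10 retinas taken a week after exposure to 10000 lux of white light for 8 hours. MG were labelled by tdTomato from the R26-stop-flox-CAG-tdTomato allele after tamoxifen induced the Cre of Rlbp1-creERT2, which is driven by a promoter active in MG, so that the brightest cells could be gated. For LD this reporter was crossed to the albino Swiss Webster strain, which carries the leucine form of RPE65, and a Hes5-GFP reporter crossed to the same strain was also in use. Whether the control mice came from these crosses is not given in the sources used here, so that strain and light damage cannot be told apart. Each condition was measured on 1 array without replicate, so no difference below has a p-value. Every SD is the spread over the probe sets of a gene on these arrays, unless named as over genes. None measures variation between animals or samples.

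Cones are the photoreceptors of daylight and colour vision, and mouse cones make a short-wavelength pigment, a middle-wavelength pigment or both. Light switches the pigment on, the pigment activates transducin, and transducin lifts the inhibitory subunits off the phosphodiesterase. The enzyme then breaks down cyclic GMP, the cyclic nucleotide-gated channel closes, and arrestin quenches the pigment. Rods run the same steps with a partner gene at nearly every position. MG are not known for using this cascade, and they support cones by recycling retinoid for their pigments.

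Cone cascade genes gave mostly lower levels in RNA of the sorted cells after light damage. Of the 10 members, 4 stood lower by at least 1 on the log2 scale (Opn1sw, Gnat2, Pde6c and Cngb3), none stood higher by that much and 6 lay within 1. Among the 16534 genes whose level averaged at least 5 over both arrays, 3.47% were lower by 1 or more and 1.75% were higher, and the share lower was 7.22% among the 1760 that averaged at least 9. Below 0 were 8 of 10 members, against 52.7% of all these genes. The median difference of the members was −0.87 (LD minus control, SD over genes 0.65), beside −0.03 for all genes. At the level of probe sets, 52 of 111 were lower by 1 or more and 4 were higher, against 13.2% lower and 10.2% higher among all 212138 probe sets with a single gene. Since the RNA came from pooled cells, fewer cone transcripts per cell and fewer cells or cell fragments that carry them cannot be told apart.

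**Figure D1:**
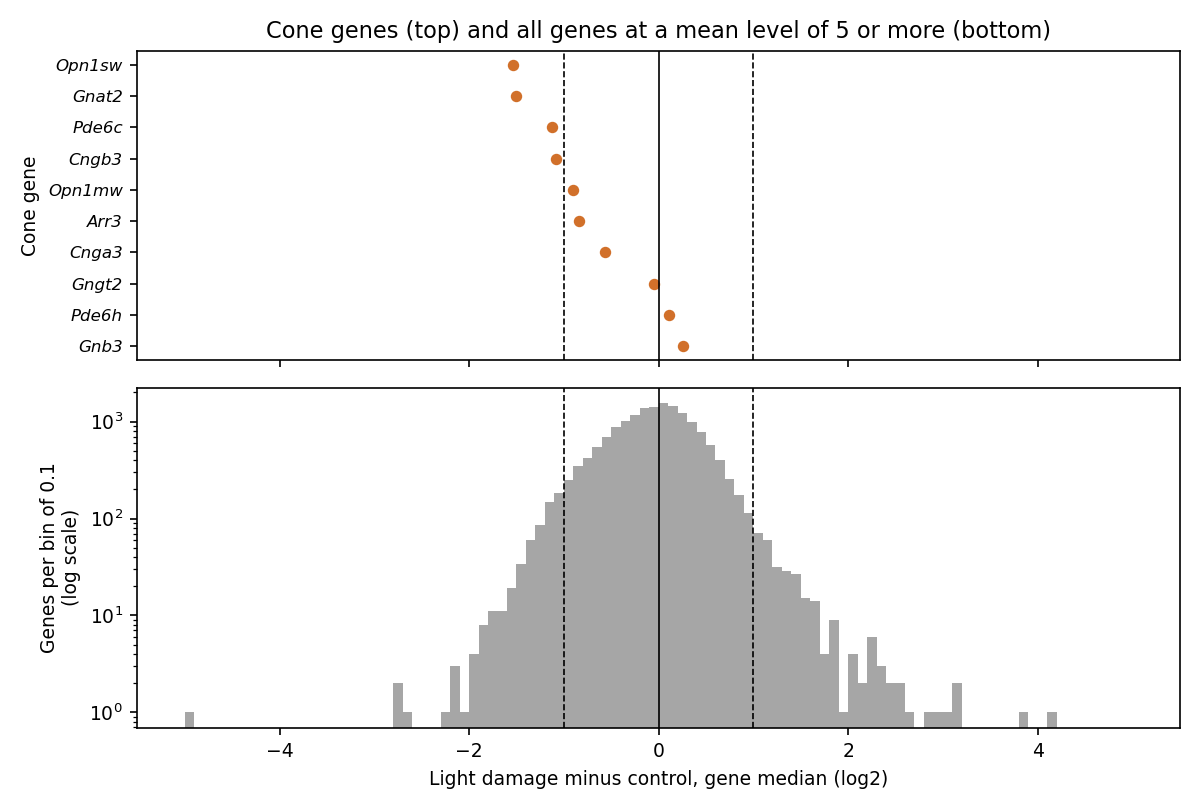
The top panel places each cone gene by its difference (LD minus control, log2, median over its probe sets), and the bottom panel shows the differences of all 16534 genes averaging at least 5 on a logarithmic count axis. Dashed lines mark −1 and 1, and 4 of the 10 cone genes lie to the left of −1, from −1.08 to −1.54.

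The arrays gave similar overall signals, with median probe set levels of 7.02 (control) and 6.99 (LD). After quantile normalization 427 genes were lower and 359 higher by 1 or more, against 574 and 289 in the values as deposited, so that the balance of directions over all genes depends on the scaling. MG markers gave signal on both arrays, which does not measure the purity of the sorted cells. The 12 MG markers had levels from 9.16 to 13.40 in the control and from 9.01 to 13.05 after LD, and all 12 lay within 1. Rod markers were also present, with levels of 9 genes from 8.63 to 13.87 in the control and from 7.84 to 13.50 after LD. All 9 were below 0 and 4 of them were lower by 1 or more, with a median of −0.93. The part of rod material in the cone values was not tested.

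**Figure D2:**
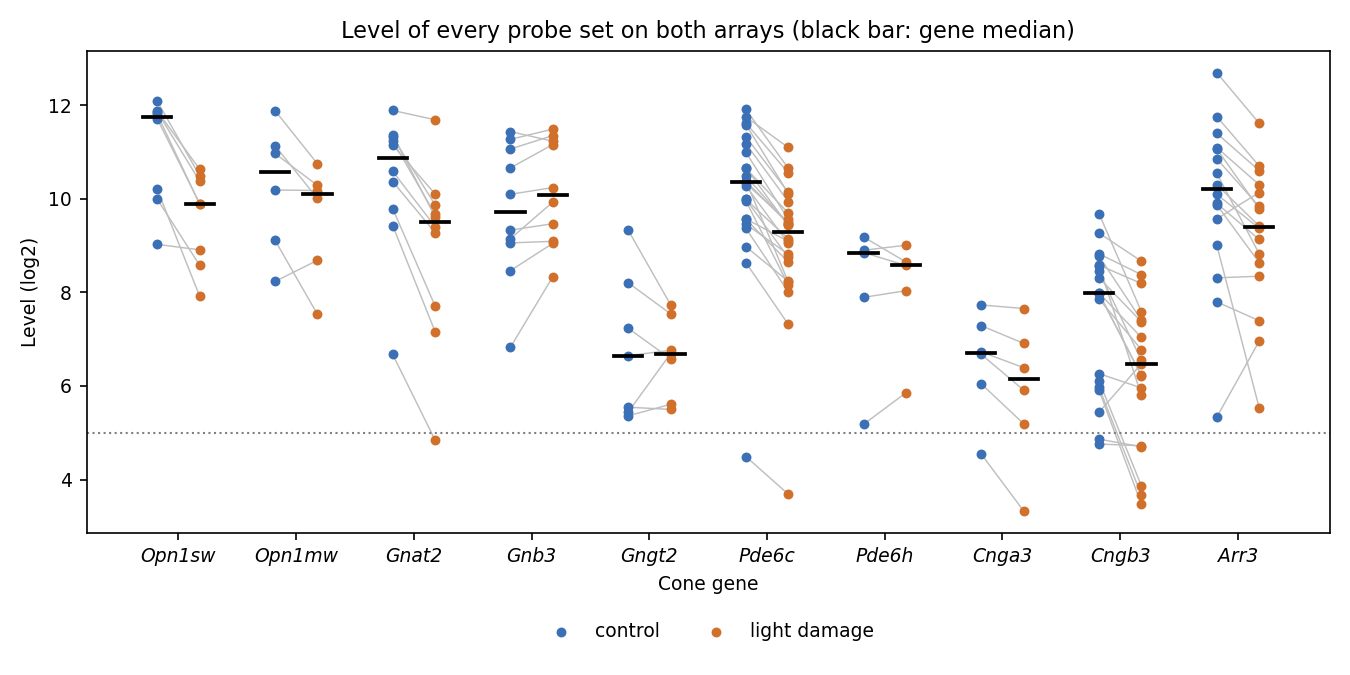
Each dot is the log2 level of a probe set of the named cone gene on the control array (blue) or the LD array (orange), grey lines join the same probe set, black bars are gene medians and the dotted line marks a level of 5. All 8 lines of Opn1sw, all 10 of Gnat2 and all 24 of Pde6c run downward, whereas 9 of the 10 lines of Gnb3 run upward.

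Promoter windows from RefSeq (GRCm38.p6), running from 250 bases before to 50 after a gene start, matched 6 of the 10 members in 7 windows, and 4 of them are shown because they stand for different outcomes: the largest negative differences (Opn1sw, Gnat2), a smaller one (Arr3) and none (Pde6h). Capitals mark TAATC or its reverse complement GATTA, the core that the photoreceptor homeodomain factors Crx and Otx2 recognise.
Opn1sw, chr6:29380464-29380763, minus strand: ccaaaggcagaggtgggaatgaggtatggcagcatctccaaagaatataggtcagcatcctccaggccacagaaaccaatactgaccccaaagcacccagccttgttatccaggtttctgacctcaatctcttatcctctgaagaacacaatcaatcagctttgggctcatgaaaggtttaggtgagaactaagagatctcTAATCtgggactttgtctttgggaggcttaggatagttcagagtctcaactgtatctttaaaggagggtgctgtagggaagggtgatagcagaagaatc
Gnat2, chr3:108092816-108093115, plus strand: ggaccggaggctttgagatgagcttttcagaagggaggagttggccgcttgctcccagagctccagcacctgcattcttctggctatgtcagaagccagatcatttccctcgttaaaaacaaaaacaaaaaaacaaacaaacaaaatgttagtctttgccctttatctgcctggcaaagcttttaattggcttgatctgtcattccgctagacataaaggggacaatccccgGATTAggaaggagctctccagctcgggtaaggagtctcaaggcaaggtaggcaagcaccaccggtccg
Arr3, chrX:100605247-100605546, plus strand: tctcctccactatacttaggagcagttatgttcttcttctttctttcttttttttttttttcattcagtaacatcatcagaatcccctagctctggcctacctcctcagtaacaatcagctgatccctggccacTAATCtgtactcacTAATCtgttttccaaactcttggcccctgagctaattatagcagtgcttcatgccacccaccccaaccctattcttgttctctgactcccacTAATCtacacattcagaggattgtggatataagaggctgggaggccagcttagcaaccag
Pde6h, chr6:136954273-136954572, plus strand: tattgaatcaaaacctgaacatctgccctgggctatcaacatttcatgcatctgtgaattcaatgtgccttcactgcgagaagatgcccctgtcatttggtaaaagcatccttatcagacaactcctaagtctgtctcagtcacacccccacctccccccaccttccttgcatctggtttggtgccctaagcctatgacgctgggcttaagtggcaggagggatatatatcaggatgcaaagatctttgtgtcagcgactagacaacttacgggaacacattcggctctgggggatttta
The core was found once in Opn1sw, once in Gnat2, 3 times in Arr3 and not in Pde6h, Opn1mw or the 2 windows of Cnga3. Opn1mw (−0.90) and Cnga3 (−0.57), whose windows are not printed, were thus below 0 without it. The core occurs in 22.0% of all 32851 promoter windows. The longer TAATCC, which contains the core and was searched on both strands, was found in Gnat2 alone, and 7.06% of all windows hold it. The nuclear receptor half-site AGGTCA, likewise searched on both strands, was found in Opn1sw, at 2 positions, and 16.3% of all windows hold it. A match in such a window is a description and not a binding site. The level of Crx, named after its values were seen, was 10.60 in the control and 10.66 after LD, with a median difference over 5 probe sets of −0.03 ± 0.33. Otx2 had levels of 8.53 and 8.69 and a median difference over 7 probe sets of −0.70 ± 0.74, with 5 of them below 0. Windows for Gnb3, Gngt2, Pde6c and Cngb3 were not used here.

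The short-wavelength pigment Opn1sw had the largest negative difference of the members. Its level was 11.75 in the control and 9.89 after LD, and the difference was −1.54 ± 0.64 (SD over 8 probe sets), or 2.91-fold lower, rank 53 from the lowest of 16534 genes. All 8 probe sets were lower after LD and 7 of them by 1 or more, from −0.12 to −2.28. By probe set, the control read 10.20, 11.86, 11.80, 11.87, 11.70, 12.08, 9.99 and 9.02, and LD read 7.92, 10.37, 9.88, 10.63, 9.89, 10.49, 8.58 and 8.91 in the same order. Only the last of them, which was the dimmest in the control, stayed nearly level. The middle-wavelength pigment Opn1mw stood at 10.58 in the control and 10.09 after LD, with a difference of −0.90 ± 0.77 over 6 probe sets. Here the probe sets disagreed, with 5 below 0, 3 lower by 1 or more and 1 above 0 at 0.45. The differences of both pigments lay within 1 SD of Opn1mw. RefSeq genes also overlap 6 of the 10 members, namely Calu at Opn1sw, Gm6758 at Opn1mw, Gm12500 at Gnat2, Abi3 at Gngt2, Gm32440 and Gm52398 at Pde6c and Gm11877 at Cngb3, and signal shared with them was not tested.

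Among the transducin subunits only the alpha subunit was lower by 1 or more. Gnat2, which couples the pigment to the phosphodiesterase, measured 10.86 in the control against 9.51 after LD, a difference of −1.51 ± 0.60, or 2.85-fold lower. All 10 of its probe sets were below 0 and 9 were lower by 1 or more. The exception was the brightest probe set, which read 11.88 in the control and 11.68 after LD, a difference of −0.20. The beta subunit Gnb3, which ON bipolar cells also make, stood at 9.71 in the control and 10.08 after LD. Its difference was 0.25 ± 0.48, and 9 of 10 probe sets were above 0, of which the dimmest in the control was the only one past 1 (6.83 in the control and 8.33 after LD). The gamma subunit Gngt2 gave 6.65 and 6.69, a difference of −0.05 ± 0.89 over 7 probe sets. Its probe sets ran from −1.59 to 1.25, and the lowest difference belonged to the brightest probe set (9.33 in the control and 7.74 after LD). Abi3, which overlaps Gngt2, is known from microglia.

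Of the phosphodiesterase genes, the catalytic subunit was lower and the inhibitory subunit was not. Pde6c had the most uniform difference of the members, at −1.12 ± 0.38 over 24 probe sets, all of them below 0 and 14 lower by 1 or more. Its level was 10.35 in the control and 9.29 after LD, 2.18-fold lower. The inhibitory subunit Pde6h, which holds the enzyme inactive in the dark, was at 8.85 in the control and 8.57 after LD. Its difference of 0.11 ± 0.46 was the median of 5 probe sets, 3 above and 2 below 0. In control and LD they read 5.18 and 5.85, 7.89 and 8.03, 8.90 and 9.01, 9.18 and 8.65, and 8.85 and 8.57. The groups of values overlap, and the median difference and the difference of the median levels had opposite signs.

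Both channel subunits were lower after LD, and only the modulatory one by 1 or more. Cngb3, that subunit, stood at 7.98 in the control and 6.48 after LD, with a difference of −1.08 ± 1.00 and 18 of 19 probe sets below 0. Those probe sets were spread from −2.77 to 1.04, and 14 of the 19 reached 5 on both arrays. Cnga3, the subunit that forms the pore, had levels of 6.70 and 6.15 and a difference of −0.57 ± 0.42, with all 6 probe sets below 0. The probe set lower by 1 or more was the dimmest, at 4.54 in the control and 3.33 after LD. The interval of 1 SD around Cngb3 held the value of Cnga3, and no difference between the subunits exceeded that spread.

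Cone arrestin was lower by less than 1 at the gene level. Arr3 measured 10.20 in the control and 9.39 after LD, a difference of −0.84 ± 1.07 over 16 probe sets. Of these, 13 were below 0, 7 were lower by 1 or more and 1 was higher by 1 or more. The range was the widest of the members, from −3.47 to 1.62 on the LD minus control scale. Its brightest probe set read 12.69 and 11.61, a difference of −1.08.

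**Figure D3:**
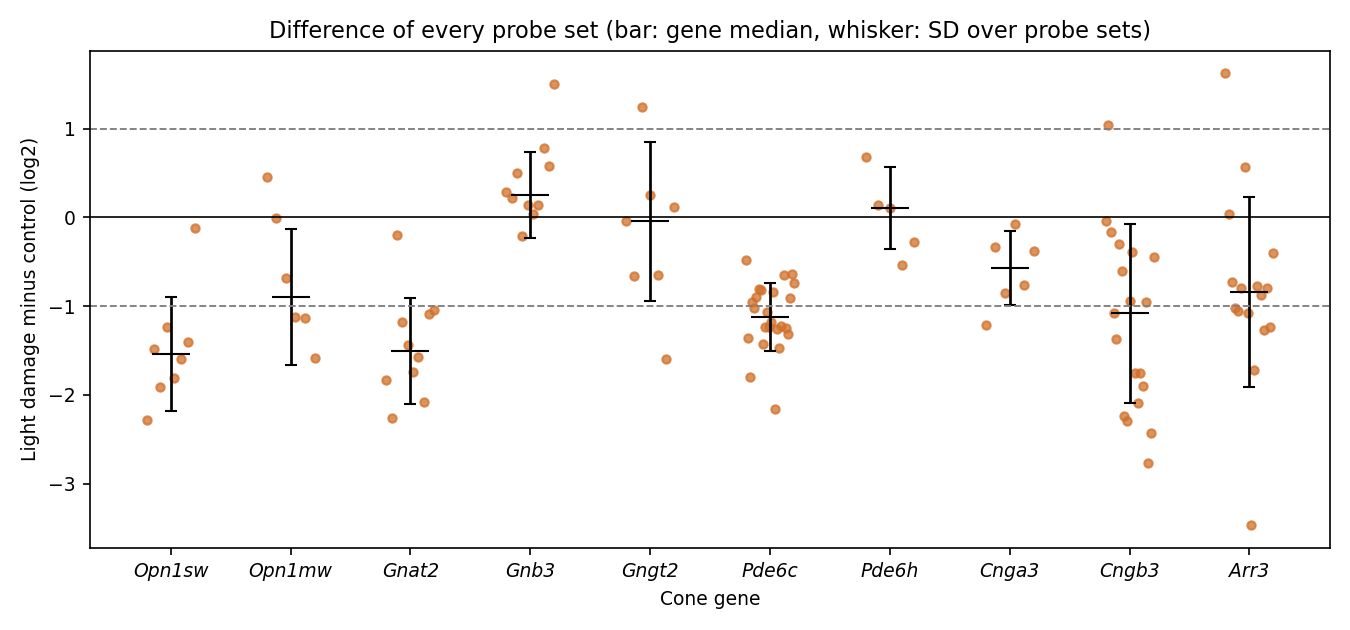
Each dot is the LD minus control difference (log2) of a probe set, the horizontal bar is the gene median and the whisker its SD over probe sets. Dashed lines at −1 and 1 mark the size counted. The probe sets of Pde6c lie between −0.48 and −2.16, and those of Arr3 reach from −3.47 to 1.62.

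Which probe sets are read decided which members passed 1. Read from the brightest probe set of each gene (the highest mean over both arrays), 4 members were again lower by 1 or more, but they were Opn1sw, Opn1mw, Gngt2 and Arr3, so that only Opn1sw was shared with the count from medians. Gnat2 then stood at −0.20, Pde6c at −0.65, Cngb3 at −0.60 and Cnga3 at −0.08, whereas Gnb3 (0.22) and Pde6h (0.11) stayed above 0. Over all genes, this reading gave 1342 lower and 1107 higher by 1 or more of 18749, against 574 and 289 of 16534 from medians. Read instead from the probe set brightest in the control alone, 6 members passed −1 (Opn1sw, Opn1mw, Gngt2, Pde6c, Cngb3 and Arr3) and all 10 were below 0. Pde6c then stood at −1.26, Cngb3 at −2.09, Gnb3 at −0.21 and Pde6h at −0.53, and the other 6 genes kept the probe set and value of the reading by mean. By its construction this choice favours probe sets that read high in the control. Of all 18688 genes counted in it, 2233 were lower and 621 higher by 1 or more. The sign of the small values of Gnb3 and Pde6h depends on the probe set read.

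The rod cascade offered a partner for 9 side-by-side readings, with the rod pigment not analysed here. All 9 rod partner genes were below 0, and 5 passed −1. Gnat1, Pde6a, Pde6b, Pde6g, Cnga1, Cngb1 and Sag were already counted among the rod markers above, so the counts are not independent. Their median difference was −1.04 (SD over genes 0.55), beside −0.87 for the cone members. The gap between cone and rod gene was larger than the larger SD of the pair in 4 of 9 pairs, those of Gnat2, Gnb3, Gngt2 and Cnga3. In the alpha subunits Gnat2 stood lower at −1.51, whereas the rod gene Gnat1 differed by −0.29 ± 0.21 (13.87 in the control and 13.50 after LD). The beta and gamma subunits gave the reverse. Gnb1, which many cell types besides rods make, differed by −0.99 ± 0.59, against 0.25 for Gnb3. Gngt1 differed by −1.07 ± 0.84, against −0.05 for Gngt2.

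The catalytic phosphodiesterase genes of cones and rods gave differences within 1 SD of each other, −1.12 for Pde6c, −1.04 ± 0.30 for Pde6a and −1.33 ± 0.47 for Pde6b. Both inhibitory subunits had median differences near 0, with 0.11 for Pde6h and −0.09 ± 0.27 for Pde6g, the rod subunit, whose levels were 12.04 and 12.12. The brightest probe set of Pde6g gave −0.57, and the probe set of Pde6h brightest in the control gave −0.53. Among channel genes, Cnga1 differed by −1.47 ± 0.65 and Cngb1 by −1.24 ± 0.41, with every probe set of both below 0, beside −0.57 for Cnga3 and −1.08 for Cngb3. The arrestins gave −0.84 ± 1.07 for Arr3 and −0.03 ± 0.79 for Sag, the rod arrestin, a gap within the SD of Arr3. In 3 of the 9 pairs the cone gene was the lower and in 6 the rod gene, with a median cone minus rod difference of 0.20. With the probe set of the highest mean over both arrays, 3 of the 9 gaps changed sign. Gnat2 (−0.20) was then above Gnat1 (−0.68), Gngt2 (−1.59) below Gngt1 (−1.07), and Pde6c (−0.65) above Pde6a (−1.21). The gaps of Gnb3 over Gnb1 and of Cnga3 over Cnga1 kept their sign in this reading and in that by the control alone. Such pairs are genes of the same 2 arrays and not replicates, and no test was made of them.

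**Figure D4:**
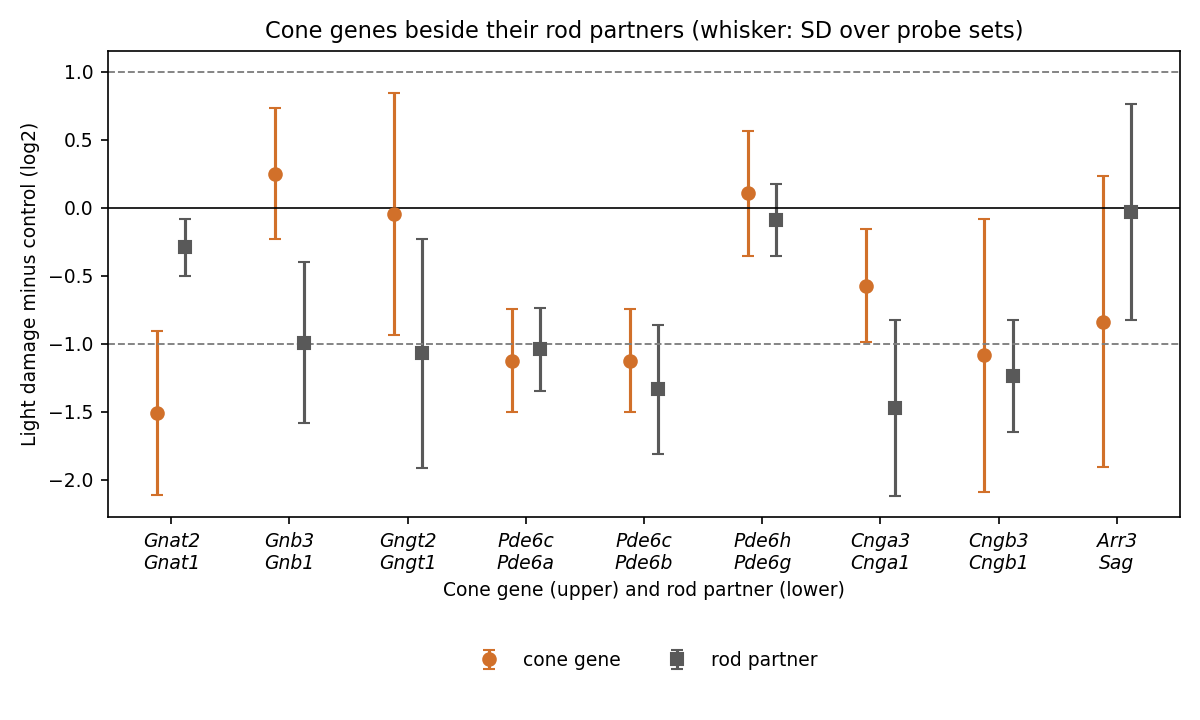
Circles are cone genes and squares their rod partners, placed by the LD minus control difference (log2) with the SD over probe sets as whiskers, and dashed lines mark −1 and 1. Pde6c appears beside both of its rod partners. The pairs of Pde6c and Pde6h lie close together, whereas Gnat2 lies below Gnat1 and Gnb3 above Gnb1.

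Genes that shape the response in rods, cones or both were mostly below 0. Of 14 genes of recovery, calcium feedback and retinoid handling, 14 were below 0, Slc24a2 only at −0.05 ± 0.70. The median of the 14 was −0.74, and 4 were lower by 1 or more. The 4 were the transducin-binding protein gene Pdc (−1.91 ± 0.29), the guanylate cyclase gene Gucy2f (−1.42 ± 0.49), the rod exchanger gene Slc24a1 (−1.41 ± 0.51) and Gnb5, a partner of the GTPase-activating complex that shuts off transducin (−1.11 ± 0.52). Of 11 photoreceptor transcription factors, none passed 1 and 10 were below 0 (median −0.58). Nrl, the rod determinant, gave −0.93 ± 0.66, Rorb −0.85 ± 0.42 and Otx2 −0.70 ± 0.74, whereas the clock repressor Nr1d1 stood at 0.89 ± 0.23.

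Cone-enriched genes outside the cascade had a median difference nearer to 0 than that of the cascade members. Of 6 such genes, all 6 were below 0 and none was lower by 1 or more, with a median of −0.32. Thrb, Rxrg and Slc24a2 were also counted in the lists of the paragraph above. Rxrg (−0.04 ± 0.47) and Slc24a2 (−0.05 ± 0.70) lay near 0, with 5 of 12 and 7 of 14 probe sets above it. Thrb, the receptor that directs middle-wavelength opsin expression, went from 9.14 to 8.18 with a difference of −0.62 ± 0.54 and 13 of 14 probe sets below 0. The remaining leading genes were Kcne2 (−0.61 ± 1.64 over 3 probe sets), Otop3 (−0.53 ± 0.62) and Ccdc136 (−0.11 ± 0.55). Rxrg, at 5.56 in the control and 5.44 after LD, had 8 of 12 probe sets at 5 or more on both arrays. The median control level was 7.33 for this list and 9.95 for the members. The part of signal level in the contrast of medians was not tested.

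Bipolar markers were followed because ON bipolar cells share Gnb3. Their 10 genes had control levels from 6.28 to 9.16 and LD levels from 6.40 to 8.49, with 6 below 0, 1 lower by 1 or more and a median of −0.14. Cabp5, a calcium-binding protein of bipolar cells, was the lower gene (−1.13 ± 0.46), followed by Lrtm1 (−0.84 ± 0.46) and Isl1 (−0.64 ± 0.50). Also below 0 were Prkca (−0.34 ± 0.75, 15 of 21 probe sets below 0) and Vsx1 (−0.27 ± 0.55). Grm6 lay at −0.00055, with 6 probe sets below and 6 above 0. The 4 genes above 0 were Gng13 (0.24 ± 0.58), Pcp2 (0.22 ± 0.54), Cabp2 (0.13 ± 0.63) and Trpm1 (0.07 ± 1.33), each smaller than its SD. Without the members Gnb3 and Gngt2, the median of the remaining 8 cone genes was −0.99. The part of bipolar material in the Gnb3 value was not tested.

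Lists of horizontal, amacrine, ganglion, microglial, endothelial and pigment epithelial markers had medians between −0.13 and 0.31, and no gene in them was lower by 1 or more. All 6 endothelial genes were above 0, from 0.26 to 0.57. Thy1 of the ganglion list (1.32 ± 0.60) and Cd68 of the microglial list (1.45 ± 1.02) were higher by more than 1. Their lists did not rise as a whole. Of the 6 ganglion genes counted, 3 were below 0 and 3 above, and of the 6 microglial genes 4 were below 0 and 2 above. In the MG list, Sox9 (0.88 ± 0.86) and Rlbp1 (−0.67 ± 0.46) lay farthest from 0.

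**Figure D5:**
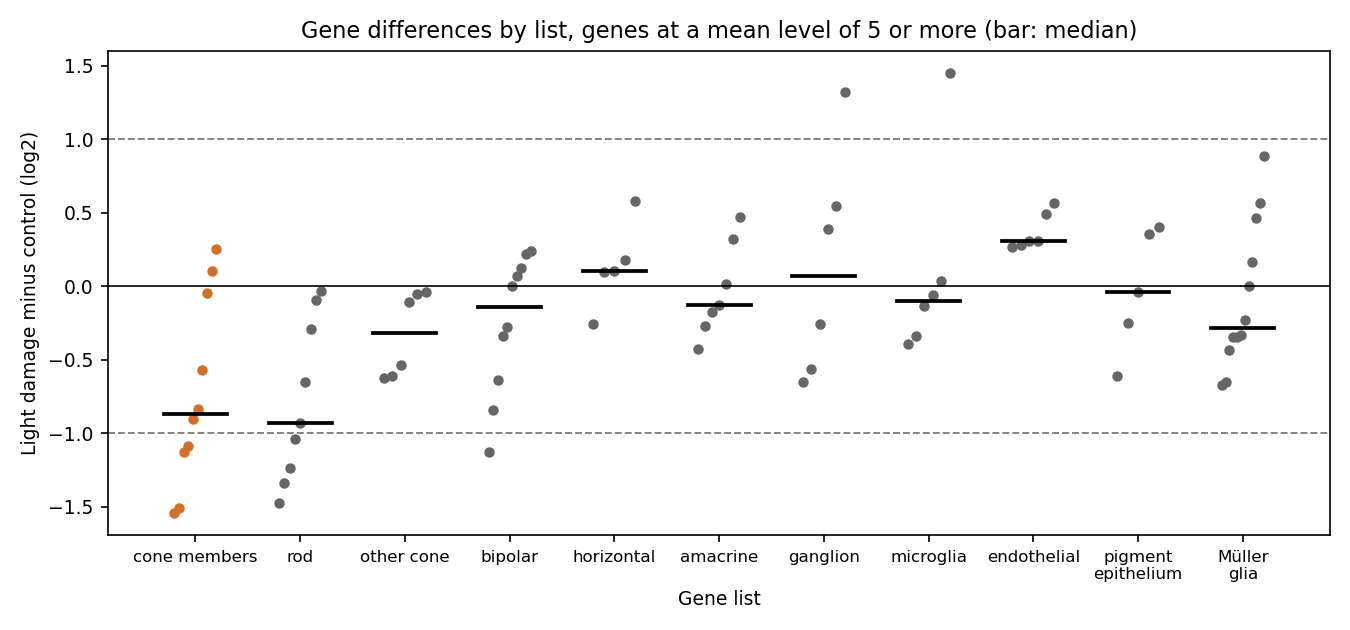
Dots are genes averaging at least 5, placed by their LD minus control difference (log2) within 11 gene lists, black bars are list medians and dashed lines mark −1 and 1. The medians of the cone members (−0.87) and of the rod markers (−0.93) are the lowest of the 11.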

How the data were processed

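MG were FACS-purified after papain dissociation, and RNA pooled per condition was run on Mouse Gene 1.0 ST arrays. The deposited values are log2 levels per exon-level probe set, for which the authors name Affymetrix Power Tools and TM4 Multi-Experiment Viewer without saying which step each performed. The sources used here give no versions, background correction or summary method. Of 241576 probe sets, 212138 (87.8%) were annotated to 1 gene, 4672 to several and 24766 to none, and only the first were used. Of 20422 symbols, 2689 were updated through RefSeq synonyms.

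A gene's difference is the median of its probe sets' LD minus control log2 values, and its level is the median per array, so both need not match. Genes were counted past 1 in either direction at a mean level of 5 or more, beside all genes. With 1 array per condition no test was made, and the number of arrays limits the precision. Probe sets differ in brightness, so a gene's level was set against its own level on the other array.

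The members and lists were chosen with earlier results of these data known. Named were all members, all rod partners, and up to 4 genes of each other list with the largest differences. Beside this rule, Crx, Rxrg, Slc24a2, Vsx1, Grm6 and the bipolar genes above 0 were named after their values were seen. The rule also took 5 genes nearest to the members in level, which are not reported because array levels of different genes cannot be compared. Alternatives were 3 scalings, an offset of 32, other summaries and filters of probe sets, and other level and size thresholds. The probe set brightest in the control was added after seeing the data. Calculations used Python 3.11.15, numpy 2.4.6, pandas 2.3.3 and statsmodels 0.14.6, and were tested on simulated data.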

Additional observations from a re-analysis of the deposited data

How the results depend on the processing

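The members' median lay between −1.11 and −0.63 and that of the rod partners between −1.17 and −0.82 under all alternatives. Below 0 were 8 of 10 members in each, except 6 of 8 at a minimum mean level of 7 and all 10 with the probe set brightest in the control, an alternative chosen after seeing the data. Pde6c did not pass −1 after quantile normalization or removal of a loess trend (span 0.3), nor Cngb3 with the offset of 32, which left 3 members lower by 1 or more in each. At thresholds of 2 and 0.5, 0 and 7 members were lower. Over all genes, the counts lower and higher were 9 and 27 at a threshold of 2, 2836 and 1813 at 0.5, 311 and 157 with the offset of 32, 1342 and 1107 with the probe set of the highest mean, and 2233 and 621 with that brightest in the control. Quantile normalization gave 427 and 359 and loess 438 and 354. Of 80 gene values recomputed, 71 moved by less than their SD over probe sets, 9 moved further and none that had passed 1 changed sign. All 9 came from the readings by a single probe set, whereas the other alternatives changed the scaling, offset, averaging or filter of the same probe sets. With the highest mean the genes that moved were Gnat2 (−0.20), Gngt2 (−1.59), Pde6c (−0.65) and Cnga3 (−0.08). With the control alone they were Gnat2, Gngt2 and Cnga3 at the same values, Pde6h (−0.53) and Cngb3 (−2.09). The cause was not tested. Signal over background limits Cngb3 in particular, where 14 of 19 probe sets reached 5 on both arrays. No paired analysis was possible because each condition has 1 array.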

Other observations

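A comparison chosen after the values were seen concerns the order of probe sets. The 6 probe sets of Opn1mw, taken in the order of their platform numbers, differed by 0.45, −0.01, −0.68, −1.12, −1.13 and −1.58 (LD minus control, log2), so that each was lower than the one before. Spearman's rho between number and difference across the probe sets of a gene was −1 for Opn1mw, −0.90 for Pde6h (5 probe sets) and 0.67 for Opn1sw (8 probe sets). Across all genes with a promoter window of known strand, at least 5 probe sets and an average level of at least 5, the median rho was −0.08 for 5063 genes on the plus strand of RefSeq and 0.08 for 4967 genes on the minus strand. The quartiles were −0.34 and 0.17 on the plus strand and −0.17 and 0.32 on the minus strand. These genes were not matched to the members by their number of probe sets. Opn1mw and Pde6h lie on the plus strand and Opn1sw on the minus strand. Gnat2 (0.33 over 10 probe sets) and Cnga3 (0.37 over 6), both on the plus strand, had the other sign, and Arr3, also on the plus strand, gave −0.37 over 16. The members with no window here gave −0.58 (Cngb3, 19 probe sets), −0.11 (Gngt2, 7), 0.07 (Pde6c, 24) and 0.43 (Gnb3, 10). Probe sets of a gene share the same arrays and RNA, and whether the numbers follow the position along the transcript was not tested.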
